A study of Mus musculus with 10 samples.

Results

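Clcf1, cardiotrophin-like cytokine factor, and the genes of the 3 receptor chains it signals through, Cntfr, Lifr and Il6st, were examined in cultured mouse lung fibroblasts. These 4 genes were chosen by name, and all 4 were among the 18193 genes measured. They were read by 12 of the 45037 non-control probe sets, and for each gene the brightest probe set, by its mean log2 value on the 10 arrays, was taken. The samples were 5 arrays of carcinoma-associated fibroblasts (CAF) and 5 of fibroblasts from normal lung. Lung cells of both groups were grown out over 10 to 14 days with 10% serum in the medium and were replated overnight before total RNA was hybridised to 1-colour Affymetrix arrays. The mouse strain, genotype, age and tumour model, and whether each culture came from a separate animal, are not given in the sources used here; the word used in the titles is biological replicates. If the cultures were not independent, the p-values measure only the spread between these arrays.

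Clcf1 belongs to the interleukin-6 family of cytokines. It is a secreted protein that binds the ciliary neurotrophic factor receptor, Cntfr, a chain without a signalling domain of its own that is held in the membrane by a lipid anchor. The bound complex recruits Lifr and Il6st (gp130), whose cytoplasmic tails carry Janus kinases that phosphorylate STAT3. Il6st is shared by the whole family and is made by most cells, Lifr also serves Lif and other ligands, and Cntfr is best known from neurons and muscle. In published work on lung tumours, Clcf1 has been described as a signal from fibroblasts to carcinoma cells, possibly from these very cultures, so its direction here is not independent evidence.

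The log2 values were made by the authors with the robust multi-array average (RMA). They can be compared between arrays for 1 probe set but not between probe sets. The array medians were 6.73 to 6.74 in CAF and 6.76 to 6.80 in normal fibroblasts, and 71.1% of genes varied more among the normal arrays. Codes in the labels start with vs for normal replicates 1 to 3 and with ls for normal replicates 4 and 5 and every CAF array; what they stand for is not stated. All 10 fibroblast markers lay above the median of all genes, with list means of 12.67 to 14.05 in CAF and 12.71 to 14.53 in normal arrays. All 12 macrophage markers also did, with list means of 10.45 to 12.97 in CAF and 9.52 to 12.99 in normal arrays, and so did 3 of 6 mesothelial markers. Normal replicate 3 stood apart in the neutrophil list, with a mean of 9.96. The CAF arrays had 6.65 to 7.11 and the other normal arrays 6.44 to 7.37. On normal replicate 3 S100a9, S100a8, Mpo and Elane read 14.29, 14.18, 9.83 and 8.67. Csf3r and Cxcr2 read 6.68 and 6.11 there, not above normal replicate 1 (7.47 and 6.11). S100a8 also read 9.69 to 12.74 in CAF. List means of lymphocyte, endothelial and epithelial markers were at most 6.01, 6.12 and 7.20 in CAF and 6.06, 6.23 and 7.47 in normal arrays, and those of skeletal muscle 7.45 to 8.29 in CAF and 7.06 to 8.12 in normal arrays. Within the epithelial list the keratins Krt8 and Krt18 reached 10.13 and 10.93 in CAF and 11.37 and 11.35 in normal arrays. Sftpc of that list read 8.51 on normal replicate 2 and 6.24 to 6.73 on the other arrays. Markers of other cell types were therefore read beside those of fibroblasts. In such bulk RNA, fewer cells of a type and less RNA per cell cannot be told apart.

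Clcf1, the ligand, was higher in CAF. Its log2 level was 10.12, 10.50, 10.32, 9.90 and 10.62 in CAF replicates 1 to 5, against 9.09, 8.69, 8.82, 9.64 and 9.33 in normal replicates 1 to 5. Every CAF array lay above every normal array, and the closest arrays were CAF replicate 4 and normal replicate 4. CAF averaged 10.29 ± 0.29 and normal fibroblasts 9.11 ± 0.38 (SD, n = 5 each). The log2 difference was 1.18 ± 0.20 (moderated SE), or 2.27-fold, with a 95% interval of 0.74 to 1.62 and an adjusted p of 0.0483 in limma over all genes. The exact 2-sided permutation test of this single gene gave p = 0.00794, the smallest that 5 against 5 arrays allow.

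Limma called 137 genes, 0.753% of those tested, at an adjusted p under 0.05, with 0.561% of genes higher and 0.192% lower in CAF. Of the 4 genes of the axis, 1 was called, Clcf1. Its difference was the 198th highest of all genes and its p the 57th smallest. Groups that did not overlap were more common than calls: 2.97% of all genes lay wholly higher and 4.19% wholly lower in CAF, and 1 of the 4 genes fell in each class, Clcf1 and Cntfr.

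**Figure D1:**
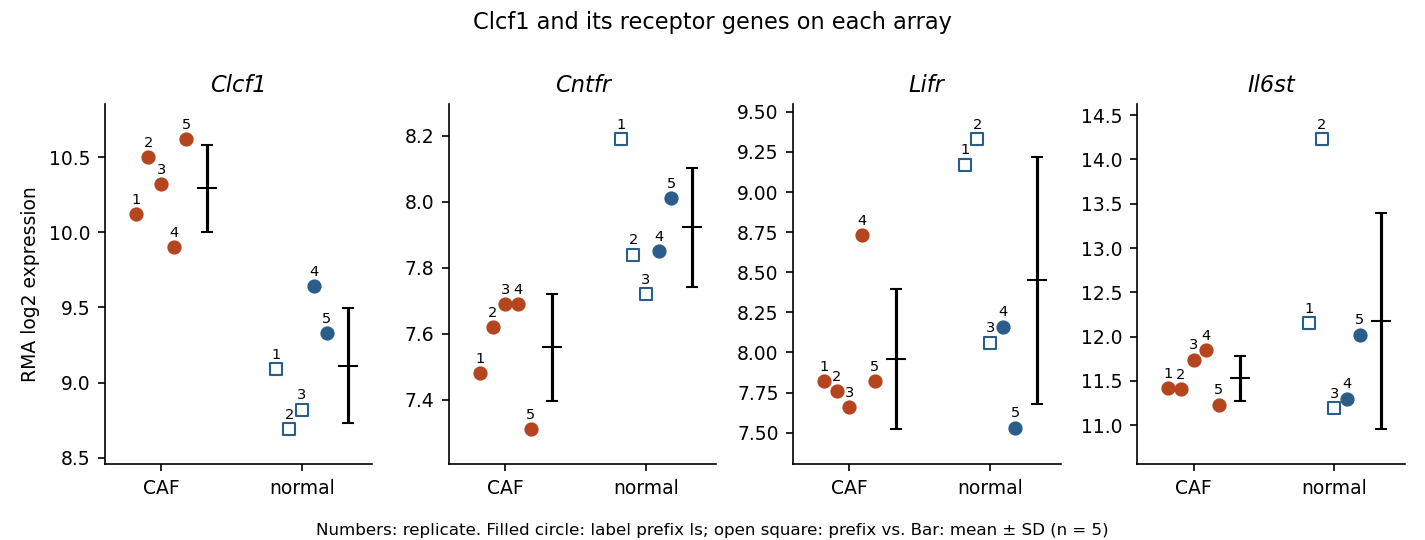
RMA log2 expression (y axis, a scale of its own in each panel) of Clcf1, Cntfr, Lifr and Il6st on the 5 CAF and 5 normal arrays, numbered by replicate; filled circles have the label prefix ls and open squares vs, and bars give the mean ± SD. CAF and normal arrays do not overlap for Clcf1 (lowest CAF array 9.90, highest normal array 9.64), nor for Cntfr (7.69 and 7.72), and normal replicate 2 stands high for Il6st at 14.23.

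The 3 probe sets of Clcf1 gave similar differences. Those of the dimmer probe sets were 1.02 ± 0.22 (1450262_at) and 1.22 ± 0.32 (1437270_a_at), and in both all 5 CAF arrays again lay above all 5 normal arrays. On 1437270_a_at the CAF arrays had 9.63, 9.89, 9.76, 9.51 and 10.16, against 8.29, 7.43, 8.79, 9.23 and 9.12 on the normal arrays. When every probe set was tested singly, limma called 1.34% of all probe sets. Of the 3 of Clcf1 it called 1, 1437271_at (adjusted p = 0.0365), with adjusted p-values of 0.0556 and 0.0767 for the others.

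The size of the Clcf1 difference depended on which normal arrays it was measured against. The normal arrays with prefix ls had a mean log2 level of 9.48 and those with prefix vs 8.87. CAF exceeded the ls normal arrays by 0.81 ± 0.20 (adjusted p = 0.109) and the vs normal arrays by 1.43 ± 0.18 (adjusted p = 0.0327). Prefix vs occurs in 1 group only, and with the prefix as a term the difference was 0.81 ± 0.20 (adjusted p = 0.306). The call also sat at the threshold. It held without normal replicate 2 (adjusted p = 0.0499) or normal replicate 4 (0.0310). It was lost without normal replicate 1 (0.0747), 3 (0.0757) or 5 (0.0593), and without CAF replicate 1 (0.0902), 2 (0.0550), 3 (0.113), 4 (0.0815) or 5 (0.143). The difference itself stayed between 1.07 and 1.31 in these 10 fits.

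**Figure D2:**
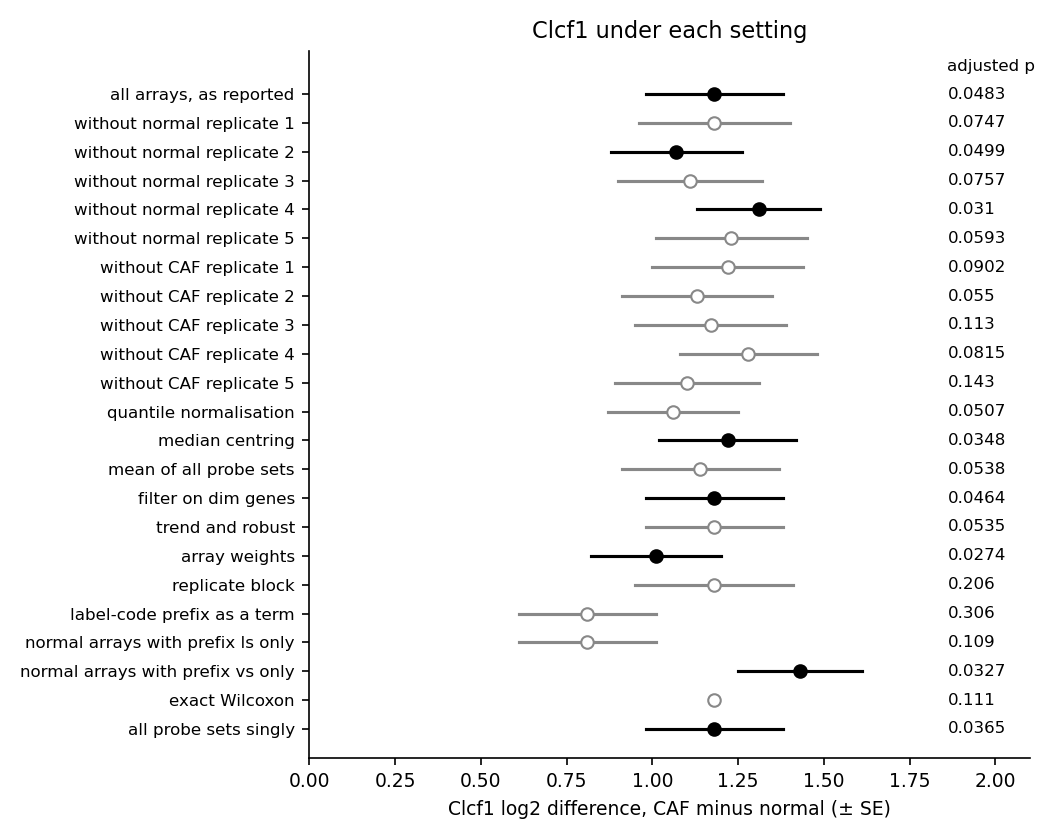
Clcf1 log2 difference, CAF minus normal (x axis, point ± SE; the exact Wilcoxon test has no SE), under each setting, with limma's adjusted p over all features tested (Wilcoxon's for that test) at the right; filled points have an adjusted p under 0.05. All differences are positive, from 0.81 to 1.43, whereas the adjusted p runs from 0.0274 to 0.306.

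Lists of other cell types were read on the same arrays as Clcf1. The pericyte and vascular smooth muscle list had means of 8.75 to 9.20 in CAF and 8.07 to 8.75 in normal arrays, so that the groups met at their edges, with 3 of 7 markers above the median of all genes. The list of Schwann and neural markers had means of 6.74 to 7.57 in CAF and 6.55 to 6.80 in normal arrays, with 0 of 7 markers above that median. Limma called 0 markers of either list, where 0.753% of all genes were called. In the first list Kcnj8 differed by 1.32 (limma's adjusted p = 0.0589), with 8.09 to 9.22 in CAF and 6.88 to 8.06 in normal arrays. Myh11, Rgs5, Cspg4 and Des of that list differed by 1.12, 0.90, 0.27 and 0.14, and Abcc9 and Notch3 by 0.00 and -0.25. In the second list Snap25, a protein of synaptic vesicle fusion, had the largest difference (2.20), with 5.23 to 9.67 in CAF and 4.51 to 4.85 in normal arrays, and Tubb3, a neuronal tubulin, differed by 0.72. In the same list S100b, a calcium-binding protein of glia and other cells, differed by 1.37 (limma's adjusted p = 0.0518), with 7.96 to 9.12 in CAF and 6.73 to 7.79 in normal arrays. Sox10, the defining factor of Schwann cells, read 7.27 to 7.59 in CAF and 7.47 to 7.66 in normal arrays. The rest of that list was lower in CAF: Sox10, Ngfr, Nefl and Rbfox3 differed by -0.10, -0.15, -0.09 and -0.26. The part of the markers of either list in the Clcf1 difference was not tested. Macrophage list means overlapped, with 10.45 to 12.97 in CAF and 9.52 to 12.99 in normal arrays. The part of the macrophage markers in the Clcf1 difference was not tested either.

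Cntfr, the chain that gives the receptor its specificity, did not pass the test. Its log2 level was 7.48, 7.62, 7.69, 7.69 and 7.31 in CAF replicates 1 to 5, against 8.19, 7.84, 7.72, 7.85 and 8.01 in normal replicates 1 to 5. The CAF arrays all lay below the normal arrays, with a gap between the groups narrower than the spread within either. The difference was -0.36 ± 0.11 (95% interval -0.60 to -0.12, adjusted p = 0.106), and the exact permutation p was 0.00794, again the smallest possible. It was -0.37 with only the ls arrays as the normal group and -0.36 with only the vs arrays. The other probe set of Cntfr, with a mean of 5.88, differed by -0.10 ± 0.08 (95% interval -0.27 to 0.07).

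Dim genes as a whole were slightly lower in CAF on these arrays. Over the 4548 genes in the same band of mean log2 level as Cntfr (6.13 to 8.11, the second of 4 bands of equal size) the median difference was -0.12, against 0.08 in each of the 2 brighter bands. In the dimmest band it was -0.08. The medians of the arrays over all probe sets did not overlap between the groups either. RMA gives no detection call, so whether Cntfr was above background on any array was not tested. After each array was centred on its median, Cntfr differed by -0.32 ± 0.10 (adjusted p = 0.130). After quantile normalisation it differed by -0.43 ± 0.10 (limma's adjusted p = 0.0897), so the 2 rescalings moved it in opposite directions.

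Lifr, the signalling chain recruited by the Clcf1 complex and by Lif, varied within both groups. It had log2 levels of 7.82, 7.76, 7.66, 8.73 and 7.82 in CAF replicates 1 to 5, against 9.17, 9.33, 8.06, 8.16 and 7.53 in normal replicates 1 to 5. CAF replicate 4 and normal replicates 1 and 2 were high, normal replicate 5 was the lowest of all, and the groups overlapped. The difference was -0.49 ± 0.36 (95% interval -1.30 to 0.31, adjusted p = 0.441, exact permutation p = 0.214). It was -0.89 against the vs normal arrays and 0.11 against the ls normal arrays, so that its sign depended on the normal arrays used. It was -0.27 ± 0.33 without normal replicate 2.

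The dimmer probe sets of Lifr varied less between arrays. The probe set 1450207_at read 5.93, 6.25, 6.25, 6.06 and 6.08 in CAF, against 6.50, 6.48, 6.25, 6.30 and 6.45 in normal fibroblasts, and differed by -0.29 ± 0.08 (limma's adjusted p over probe sets 0.0896). Here the groups touched at 6.25 without overlapping before rounding. The probe set 1425107_a_at differed by -0.27 ± 0.08 (adjusted p = 0.0983). The high arrays of the brightest probe set, CAF replicate 4 and normal replicates 1 and 2, did not stand apart on 1425107_a_at, where they read 5.83, 5.97 and 5.99, with 6.12 on normal replicate 3. On 1450207_at normal replicates 1 and 2 were again the highest arrays, at 6.50 and 6.48. The 3 probe sets therefore gave 1 sign, with patterns over the arrays that matched only in part.

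**Figure D3:**
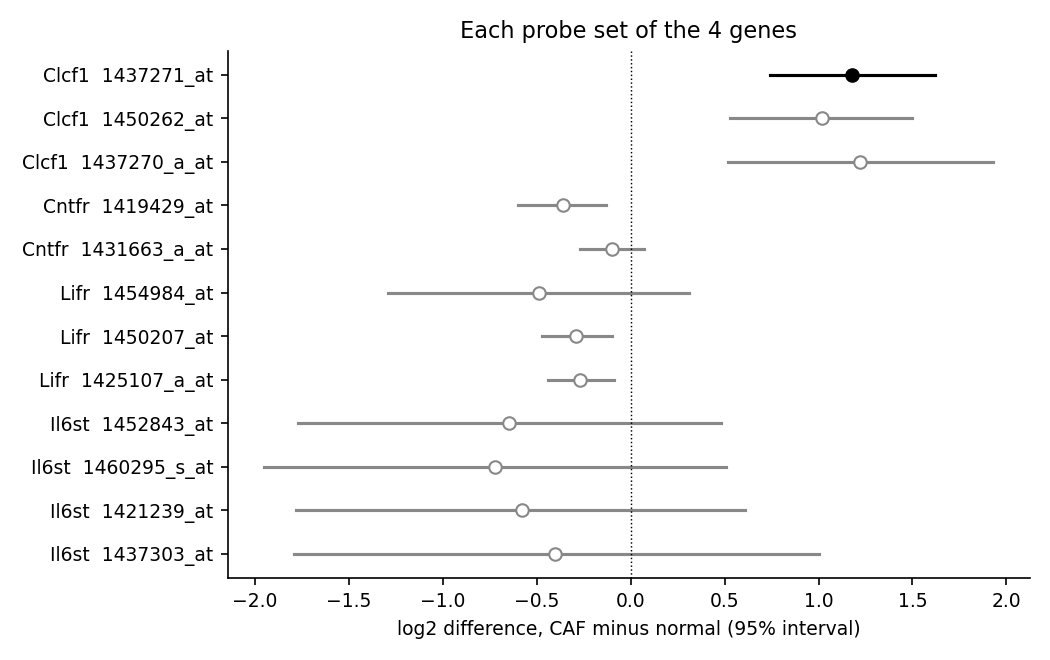
Log2 difference, CAF minus normal, with its 95% interval (x axis), for each of the 12 probe sets of the 4 genes, brightest first within a gene; the filled point has an adjusted p under 0.05 over all probe sets. The 3 probe sets of Clcf1 lie between 1.02 and 1.22, and all 9 probe sets of the receptor genes have negative differences, from -0.72 to -0.10, of which 0 were called.

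Il6st, the shared signal transducer of the family, was set apart by 1 normal culture. It had log2 levels of 11.42, 11.41, 11.74, 11.85 and 11.23 in CAF replicates 1 to 5, against 12.15, 14.23, 11.19, 11.30 and 12.02 in normal replicates 1 to 5. The CAF arrays spanned 0.62 and the normal arrays 3.04, and normal replicate 2 was far above all others. The difference was -0.65 ± 0.51 (95% interval -1.78 to 0.49, adjusted p = 0.473, exact permutation p = 0.278), and -0.13 ± 0.23 without normal replicate 2 (adjusted p = 0.739). The interval with all arrays spans 0.291 to 1.40 times the normal level, so the arrays do not show that Il6st was alike in the groups.

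The 4 probe sets of Il6st showed the same array. On normal replicate 2 the 3 dimmer ones read 13.16, 12.45 and 12.53, whereas the next highest normal array had 10.90, 10.35 and 9.71. Their differences were -0.72 ± 0.55, -0.58 ± 0.54 and -0.40 ± 0.62. The brightest of these 3, 1460295_s_at, has the suffix for probes that may be shared between related transcripts.

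Normal replicate 2 also stood apart in the markers of cell types. It had the highest fibroblast list mean of the 10 arrays (14.53), the lowest macrophage list mean (9.52) and the lowest mesothelial list mean (6.21). The other normal arrays had 12.71 to 13.31 for fibroblast, 10.16 to 12.99 for macrophage and 8.35 to 9.84 for mesothelial markers. Among single markers, Pdgfra, a receptor of fibroblasts, read 12.82 there, and Upk3b, a mesothelial membrane protein, read 5.35, against 9.66 to 14.03 on the other normal arrays. CAF replicate 1 had a fibroblast list mean of 14.05 and read 11.42 for Il6st. Lum, a member of the fibroblast list, read 14.49 on normal replicate 2, 14.12 on CAF replicate 1 and 7.06 to 10.33 on the other arrays. The part of the cell mixture in the Il6st value was not tested.

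**Figure D4:**
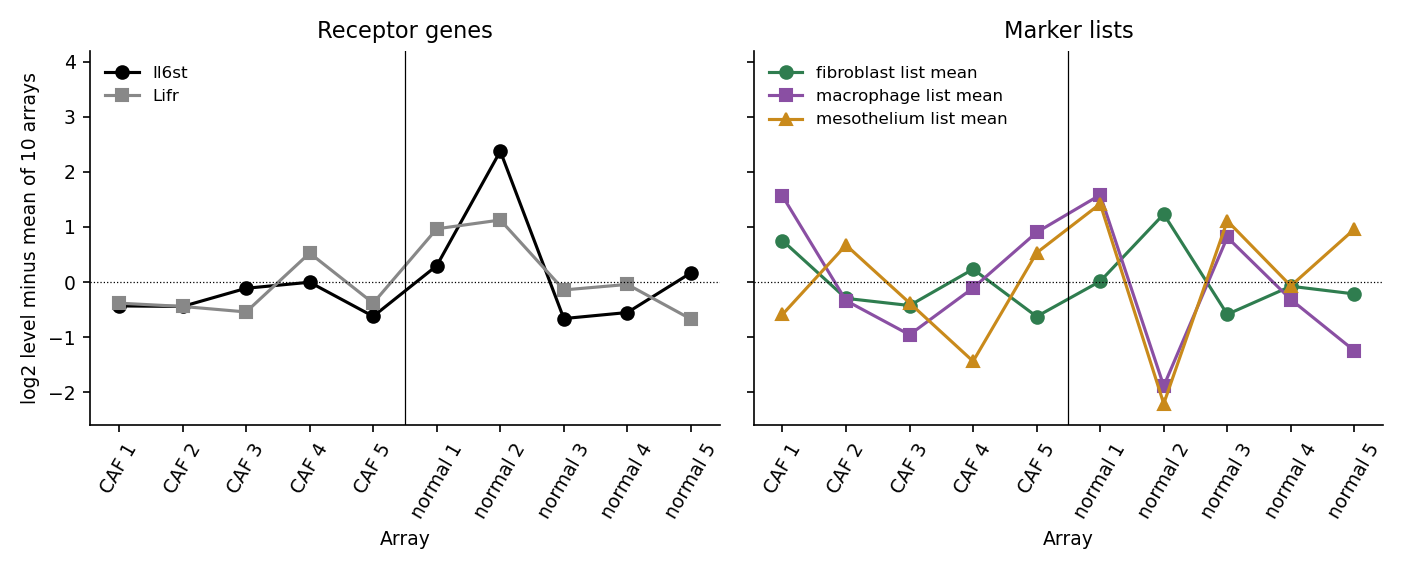
Log2 level minus its mean over the 10 arrays (y axis) for Il6st and Lifr (left) and for the means of the fibroblast, macrophage and mesothelium marker lists (right), with the 5 CAF arrays left of the vertical line and the 5 normal arrays right of it. Normal replicate 2 is the highest array for Il6st (14.23), Lifr (9.33) and the fibroblast list (14.53) and the lowest for the macrophage (9.52) and mesothelium (6.21) lists.

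The genes around this receptor were read from lists chosen with earlier results of these data known. Of 58 genes listed, 52 were measured; the median of their differences was 0.12, against -0.04 over all genes. Lif rose, 0 fell and 51 were not called by limma, where 0.753% of all genes were called, and 14 of the 52 had an unadjusted p under 0.05. At that unadjusted threshold 22.3% of all genes lay (4054 of 18193), so the 14 are near the background. The exact Wilcoxon test called 0 genes, in the lists or outside them (3184 of all genes at an unadjusted p under 0.05). Its smallest adjusted p over all genes was 0.111, so it could call none. The count of 1 was 0 without normal replicate 1, 3 or 5 or without CAF replicate 1, 3, 4 or 5, and 2 (Lif and Il11) without normal replicate 4.

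The listed genes without a measurement, among them Cntf, the other main ligand of Cntfr, were not analysed here. The sorting receptors, which bind and internalise Clcf1 and related cytokines, were measured but not called. Sorl1 had -0.37 ± 0.24 (adjusted p = 0.386) and Sort1 0.27 ± 0.37 (adjusted p = 0.687). Sorl1 was highest, at 8.74, on normal replicate 3, the array with the high neutrophil list mean. Both genes overlapped between the groups. The part of the neutrophil markers in the Sorl1 value was not tested.

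Among the other ligands of the family, Lif, which shares Lifr and Il6st with Clcf1, was the called gene. Lif read 10.99, 11.18, 11.88, 11.57 and 12.01 in CAF replicates 1 to 5, against 8.81, 8.46, 8.75, 10.47 and 9.39 in normal replicates 1 to 5 (difference 2.35 ± 0.37, adjusted p = 0.0394). Il6 and Il11, whose receptors use Il6st without Lifr, differed by 1.82 ± 0.48 and 3.25 ± 0.75 (adjusted p = 0.0860 and 0.0684). These sizes too depended on the normal arrays: with the ls arrays as the normal group the differences were 1.60 for Lif, 1.39 for Il6 and 1.88 for Il11, and with the vs arrays 2.86, 2.11 and 4.17. For Clcf1, Lif, Il6 and Il11 alike, normal replicate 4 was the highest normal array. The 6 measured ligands had a median difference of 1.22, with 5 positive, and Ctf1, cardiotrophin, was the exception. Il31, among the positive ones, was dim, with 4.85 to 5.03 in CAF and 4.73 to 4.91 in normal arrays. Of the 6, 3 had an unadjusted p under 0.05 in limma (22.3% of all genes). Lif and Il6 lay wholly higher in CAF (2.97% of all genes). These genes were listed with earlier results of these data known.

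The other receptor chains gave no call. Of 4 measured, 0 passed limma's test and 1 had an unadjusted p under 0.05 (22.3% of all genes), and their median difference was -0.10. Osmr, the oncostatin M receptor, read 12.99, 12.42, 12.68, 12.98 and 12.64 in CAF, against 12.86, 13.43, 11.55, 11.98 and 12.07 in normal fibroblasts (0.36 ± 0.32, adjusted p = 0.530). Normal replicate 2 was again the highest array. Il6ra, the interleukin-6 receptor, had -0.20 ± 0.09 (adjusted p = 0.232), and 0.10 ± 0.18 on its dimmer probe set. Il31ra, a chain of the interleukin-31 receptor, had -0.18 ± 0.07 (adjusted p = 0.161). Il31ra was dim, with levels of 6.81 to 7.01 in CAF and 6.97 to 7.21 in normal arrays.

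The kinases and transcription factors downstream of Il6st were measured without a call. Of 11 genes, 0 passed and 3 had an unadjusted p under 0.05, a share near the 22.3% of all genes, with a median difference of 0.12. Stat3, the main transcription factor of the pathway, read 12.43, 12.39, 12.32, 12.26 and 12.31 in CAF, against 12.88, 12.81, 11.99, 12.05 and 12.28 in normal fibroblasts. Its difference was -0.06 ± 0.18 (95% interval -0.46 to 0.34), with all CAF arrays inside the range of the normal ones. The kinases Jak1 and Jak2 had 0.43 ± 0.23 (adjusted p = 0.297) and 0.37 ± 0.16 (adjusted p = 0.222), and Stat5b -0.28 ± 0.09 (adjusted p = 0.134). Ptpn11, the phosphatase that links Il6st to MAP kinase signalling, had 0.53 ± 0.16 (adjusted p = 0.108). Its groups did not overlap on the brightest probe set, and the differences were 0.38 ± 0.17 and 0.02 ± 0.11 on the dimmer ones.

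The list of inhibitors of the pathway holds Socs1, Socs2, Socs3 and Cish, which cytokine signalling itself induces, and PIAS proteins and phosphatases, which are not known mainly as induced genes. The median difference of these 9 genes was 0.20, and 0 passed and 2 had an unadjusted p under 0.05, near the share of all genes (22.3%). Socs3, which binds Il6st and blocks its kinases, read 12.12, 10.47, 10.51, 11.80 and 11.01 in CAF, against 11.03, 12.31, 10.39, 10.72 and 10.03 in normal fibroblasts (0.29 ± 0.47, 95% interval -0.76 to 1.33). Its highest array was normal replicate 2, and its dimmer probe sets differed by -0.03 ± 0.52 and -0.03 ± 0.48. Cish had 0.87 ± 0.25 (adjusted p = 0.0943) and Socs2 1.15 ± 0.36 (adjusted p = 0.118); these are inhibitors best known as targets of STAT5. For Socs2 the difference was 0.46 with the ls arrays as the normal group and 1.60 with the vs arrays. Its other 5 probe sets disagreed: 2, with mean log2 levels of 9.16 and 6.87, differed by 1.25 ± 0.39 and 1.07 ± 0.27. The other 3, with mean levels of 6.89, 5.58 and 5.00, differed by -0.24, -0.06 and 0.04. Ptpn2, a phosphatase of Janus kinases, had 0.21 ± 0.13 (adjusted p = 0.361).

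Genes known as STAT3 targets had a median difference of 0.05 over 20 genes, with 12 positive and 8 negative. Limma called 0, and 5 had an unadjusted p under 0.05, again near the 22.3% of all genes. Lcn2, a secreted protein that binds siderophores, differed by 3.62 ± 1.23 (adjusted p = 0.134) and varied widely, with 13.24, 9.36, 12.77, 13.73 and 13.42 in CAF, against 7.16, 11.42, 11.64, 7.55 and 6.64 in normal fibroblasts. CAF replicate 2 lay below normal replicates 2 and 3, so the groups overlapped. Bcl2l1, an inhibitor of cell death, had 0.31 ± 0.11 (adjusted p = 0.148), and Fos, a subunit of AP-1, had 0.97 ± 0.36 (adjusted p = 0.156).

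**Figure D5:**
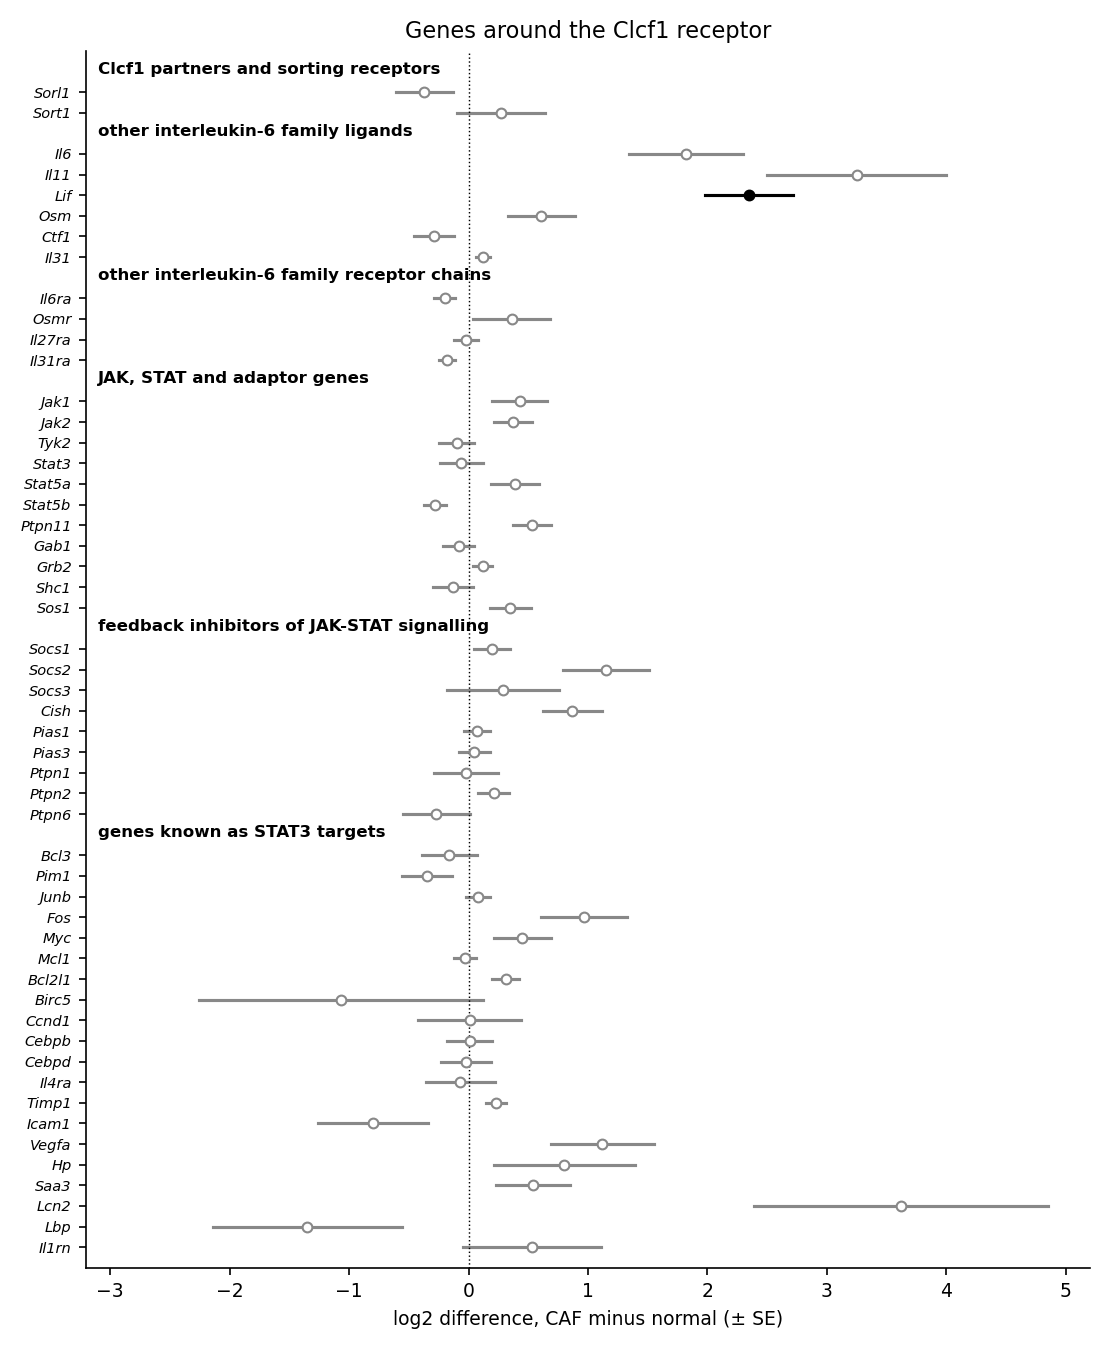
Log2 difference, CAF minus normal, ± SE (x axis), for the 52 measured genes around the Clcf1 receptor, grouped by role; the filled point is the gene with an adjusted p under 0.05 over all genes, Lif at 2.35. The ligands Il6, Il11 and Lif lie between 1.82 and 3.25, and Stat3 (-0.06) lies close to 0.

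The genes with a pattern most like that of each gene of the axis were found by the root mean square difference between log2 values over the 10 arrays, after each gene's own mean was subtracted. This is a description, and the group differences of genes found so were not tested. For Clcf1 the nearest were Gfod1 (0.17), Osgin2 (0.18), Eaf1, a partner of transcription elongation factors (0.22), Mllt11 (0.23) and Ier3, an early response gene (0.23), where Clcf1 itself departs from its mean by 0.66. Their differences were 1.26, 1.07, 0.97, 1.37 and 1.26, near the 1.18 of Clcf1, as this choice implies.

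The receptor genes had other neighbours. For Il6st they were Ndufa4l2, Synpo, an actin-binding protein, and Adamts15, a secreted metalloprotease, at 0.24, 0.25 and 0.32, and all 3 were highest on normal replicate 2. For Lifr they were C1s1, a complement protease, Iglon5 and Notch3, at 0.21, 0.28 and 0.28, also highest on normal replicate 2. For Cntfr they were Papolb, Gprc6a and Cpa4, at 0.07, 0.08 and 0.08, where Cntfr departs from its mean by 0.24; their own mean levels were 5.25, 5.98 and 5.57, within the dimmest of the 4 bands (4.16 to 6.13).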

How the data were processed

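The authors' deposited table holds RMA log2 expression values, 1 column per array, made in Affymetrix Expression Console per the submitters' processing notes, which also list limma; tool versions are not given in the sources used here. In RMA, probe signals are background-corrected, quantile-normalised and combined into 1 value per probe set. Of 45101 probe sets, 64 controls were left out, and 34945 had 1 gene symbol in the platform table, updated through the gene table of GRCm38.p6, which was used for names only. Each gene took its brightest single-symbol probe set. Groups came from the titles. The test was limma 3.58.1, run in R 4.3.3 (group as the only term, default prior, 2-sided, Benjamini-Hochberg over all 18193 genes, called under 0.05), after a test on simulated data. Probe sets were also fitted singly. Single genes of the axis had an exact permutation test over 252 splits.

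The 4 genes and the lists were chosen with earlier results of these data known. Named were the 4 genes, in each list the called genes, the 3 with the smallest p and Il6, Il11, Lif, Il6ra, Osmr, Jak1, Stat3 and Socs3, and the 5 genes nearest in pattern to Clcf1 and 3 for each receptor gene, passing over clone names, predicted and Y-linked genes. Ctf1, Il31, Vegfa and the single cell type markers were named after their values were seen. The 10 lists of cell type markers were read as means per array. The alternatives were other scalings, probe set rules, filters, variance models and array subsets. The precision is limited by 5 arrays per group.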

Additional observations from a re-analysis of the deposited data

Results flagged for a closer look

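In 64 groups of 5 arrays (each group of the 12 probe sets and of the named genes around them), 4 had an array whose gap to its neighbour took more than 0.71 of the group's range; chance alone gives about 1 in 20. Lifr read 8.73 on CAF replicate 4, where the next CAF array had 7.82. The Il6st probe set 1437303_at read 12.53 on normal replicate 2, where the next normal array had 9.71. Jak2 read 11.88 on CAF replicate 4, where the next CAF array had 11.34. Lcn2 read 9.36 on CAF replicate 2, where the next lowest CAF array had 12.77.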

How the results depend on the processing

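Clcf1 was higher in CAF under all 22 alternatives, but its call was kept in 7 and lost in 15. Outside the fits that leave out an array (1.07 to 1.31), the call was lost after quantile normalisation (1.06, adjusted p = 0.0507). It was also lost with the mean of all probe sets (1.14, 0.0538) and with trend and robust settings (1.18, 0.0535). The same held with the label-code prefix as a term (0.81, 0.306) and with the ls normal arrays only (0.81, 0.109). With the exact Wilcoxon test (1.18) the adjusted p of Clcf1 was 0.111. This was the smallest of any gene, so that test could call none. Cntfr was negative in all 21 alternatives that include it and was called in 1, with array weights (-0.39, adjusted p = 0.0487); the filter on dim genes removed it. Lifr turned to 0.11 with the prefix as a term and with the ls normal arrays only, and was negative in the other 20 fits. Il6st was negative and not called in all 22, from -0.99 to -0.13.

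The count of 137 called genes became 285 (250 higher, 35 lower) after median centring, 50 (45 higher, 5 lower) with the filter on dim genes, which tests 9096 genes, 46 with trend and robust settings and 1597 (983 higher, 614 lower) with array weights. Quantile normalisation gave 43 higher and 49 lower. It was 0 with the prefix as a term (2649 genes at an unadjusted p under 0.05) and with the exact Wilcoxon test (3184), 1 with the ls normal arrays only, 605 of 45037 when probe sets were tested singly, and 0 to 166 without 1 array. The count of 1 called gene in the lists became 6 with array weights (Il6, Il11, Lif, Cish, Vegfa and Lcn2), 2 with the vs normal arrays only (Il11 and Lif), 0 with the prefix as a term, the ls normal arrays only or the Wilcoxon test, and 0 to 2 without 1 array. With the filter on dim genes the 1 called gene was Il11. The Wilcoxon test could call none, as its smallest adjusted p over all genes was 0.111. Prefix vs occurs in 1 group only, so the fit with the prefix term compares CAF with the ls normal arrays. Apart from these fits and those with fewer genes or arrays, the cause of the changes was not tested.

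With the replicate number as a block, Clcf1 differed by 1.18 ± 0.23 (adjusted p = 0.206), and 0 genes were called (3017 at an unadjusted p under 0.05), 0 of them in the lists. Whether the numbers pair the arrays is not given in the sources used here. Deviations of same-numbered arrays correlated at -0.53 to 0.34, and 1 of 5 CAF arrays correlated best with its own number. Such correlations of expression values cannot decide whether the cultures were paired.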
